A study of Mus musculus with 6 samples.

Results

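The RNAs described here encode subunits of the translation initiation factor eIF3 and the initiation factors eIF4A and eIF4B. They are the genes Eif3a, Eif3e, Eif3f, Eif3h, Eif3k, Eif3l, Eif3m, Eif4a1, Eif4a2 and Eif4b, chosen by a fixed list of 10 Ensembl identifiers among the 16976 in the deposited count table, and all 10 had a row. RNA that co-precipitated with the RNA-binding protein LARP1 was counted in dorsal root ganglia (DRG), which hold the cell bodies of sensory neurons, of mice labelled wild type. One group of 3 libraries came from mice with an injured sciatic nerve, the nerve that carries the axons of many of these neurons. The other group of 3 libraries came from DRG labelled uninjured. Their titles do not say whether these DRG came from other mice. Both groups were LARP1 precipitates from wild-type mice with no transgene named in the labels; the sources used here do not give the age of the mice, the kind of injury, the time after it or the number of animals per library.

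Initiation of translation joins the small ribosomal subunit to an mRNA. eIF3 is a large complex that binds this ribosomal subunit and helps to recruit the mRNA. eIF4A is an RNA helicase that unwinds the start of the mRNA, and eIF4B stimulates it. LARP1 is known for binding the capped start of mRNAs that open with a terminal oligopyrimidine tract (TOP), an uninterrupted row of C and T (in RNA, U) that begins with C at the first base. TOP mRNAs encode most ribosomal proteins and several translation factors, and their translation is controlled by the kinase mTOR.

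Start sites are shown for 4 of the eIF3 genes, the 2 with a row of C and T at the start and 2 without one whose levels differed in opposite directions after injury. Each sequence runs from 10 bases before to 20 bases from the annotated start onward, on the sense strand, and was taken from RefSeq on GRCm38.p6. That is not the build named for the counts (GRCm39), and annotated starts can lie some bases away from the starts used in DRG. Capitals mark each run of at least 6 C or T, with at least 1 C, that reaches into the 5 bases on either side of the start. The positions are chr7:108934405-108934434 on the plus strand for Eif3f, chr15:79075213-79075242 on the plus strand for Eif3l, chr19:60790674-60790703 on the minus strand for Eif3a and chr7:28981869-28981898 on the minus strand for Eif3k.
Eif3f: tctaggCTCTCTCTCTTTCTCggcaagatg
Eif3l: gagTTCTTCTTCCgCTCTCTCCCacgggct
Eif3a: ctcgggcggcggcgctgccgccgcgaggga
Eif3k: aaccggcgctggtgctgaaagcgcctttcc

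The run in Eif3f is 15 bases long and begins 4 bases before the annotated start. Eif3f was also the single gene among the 8 with a start in the table whose annotated first base was a C followed by 4 more bases of C or T, a pattern found at 2.51% of all 32851 starts of the table. A run of at least 6 near the start was present in Eif3f and Eif3l and at 19.98% of all starts. Eif3a, Eif3k, Eif3m, Eif4a1, Eif4a2 and Eif4b had no such run in this window, and Eif3e and Eif3h were not in the table. A missing run says only that these letters are not near the annotated start.

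The injured libraries held 211337 to 211879 counts and the uninjured libraries 116186 to 116608. Libraries varied 1.12 times as much as counting noise in the injured group (6152 genes with 15 or more counts) and 1.16 times in the uninjured group (3827 genes). The initiation factor genes with that many counts varied 0.724 times as much as counting noise in the injured group (9 genes) and 1.14 times in the uninjured group (7 genes). Because the spread within groups was close to sampling noise and no label names separate animals, each group was summed and treated as 1 sample. The difference between groups therefore has no replicate check, and injury and a batch shared by all libraries of 1 group cannot be told apart. Levels are counts per 1000000 counts of the column total (CPM), with exact 95% Poisson intervals, and ratios carry exact 95% Clopper-Pearson intervals. Both kinds of interval cover counting error of the reads only, and not spread between samples. Amplified reads without molecular identifiers are not independent molecules, so the intervals may be too narrow even for counting error. Each value is a level in the precipitate, not an enrichment over the tissue, and fewer cells of a type, less RNA per cell and less binding to LARP1 cannot be told apart.

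Summed over the 10 genes, initiation factor RNA took nearly the same share of the precipitate in both groups, while single eIF3 subunits differed in opposite directions. Eif3k and Eif3h were called higher after injury, Eif3a and Eif3f were called lower, and Eif3l, Eif4a2 and Eif4b did not pass the test. Calls were about as common among genes in general, with 24.9% of all 3158 genes tested called higher and 22.1% lower. With an assumed coefficient of variation of 0.2 between samples, 0 of the 7 tested initiation factor genes were called. The sum was 1679.8 CPM in the injured group (1066 counts) and 1524 CPM in the uninjured group (532 counts), a ratio of 1.10 with an interval of 0.992 to 1.23. The 7 eIF3 genes together had 993 CPM in the injured and 923 CPM in the uninjured group, a ratio of 1.08 (0.939 to 1.23). The 3 eIF4 genes had 687 CPM in the injured and 602 CPM in the uninjured group, a ratio of 1.14 (0.966 to 1.35). All 3 intervals include 1. That of the 10 genes lay just above 1 without the first injured library (1.002 to 1.26) or without the first uninjured library (1.006 to 1.29), with ratios of 1.12 and 1.14. Every injured library lay above every uninjured one for the 10 genes summed, but barely (lowest injured 1619, highest uninjured 1617 CPM). The same held for the 3 eIF4 genes summed (670 against 628 CPM), while the libraries overlapped for the 7 eIF3 genes. Among all 3158 single genes tested, 32.4% lay above in this way.

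The test was edgeR's quasi-likelihood test across all genes that passed a filter on low counts, with a Benjamini-Hochberg threshold of 0.05. It compares the reads of these groups and not the conditions, because its spread is that between libraries treated as 1 sample. Of the 10 genes 7 were tested, and 2 of these were called higher and 2 lower. Among all 3158 genes tested, 24.9% were called higher and 22.1% lower, or 47.0% in either direction, so the calls among these 7 genes were about as frequent as among genes in general. A ratio past 1.5-fold was met by the same counts of the 7 genes, 2 higher and 2 lower, against 30.0% and 21.0% of all genes tested. The median log2 ratio of CPM was 0.04 over the 7 tested genes and 0.51 over all 10, which include 3 genes with few counts, beside 0.08 over all genes tested, whose quartiles were -0.46 and 0.74. With an assumed coefficient of variation of 0.2 between samples, edgeR's exact test on the summed counts called 0 of the 7 genes in either direction, against 9.66% higher and 5.57% lower among all genes tested. At an unadjusted p under 0.05 that test had 1 of the 7 higher and 1 lower, against 15.2% and 12.4% of all genes. By the quasi-likelihood test 2 were higher and 2 lower at that unadjusted p, against 28.1% and 25.3% of all genes.

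**Figure D1:**
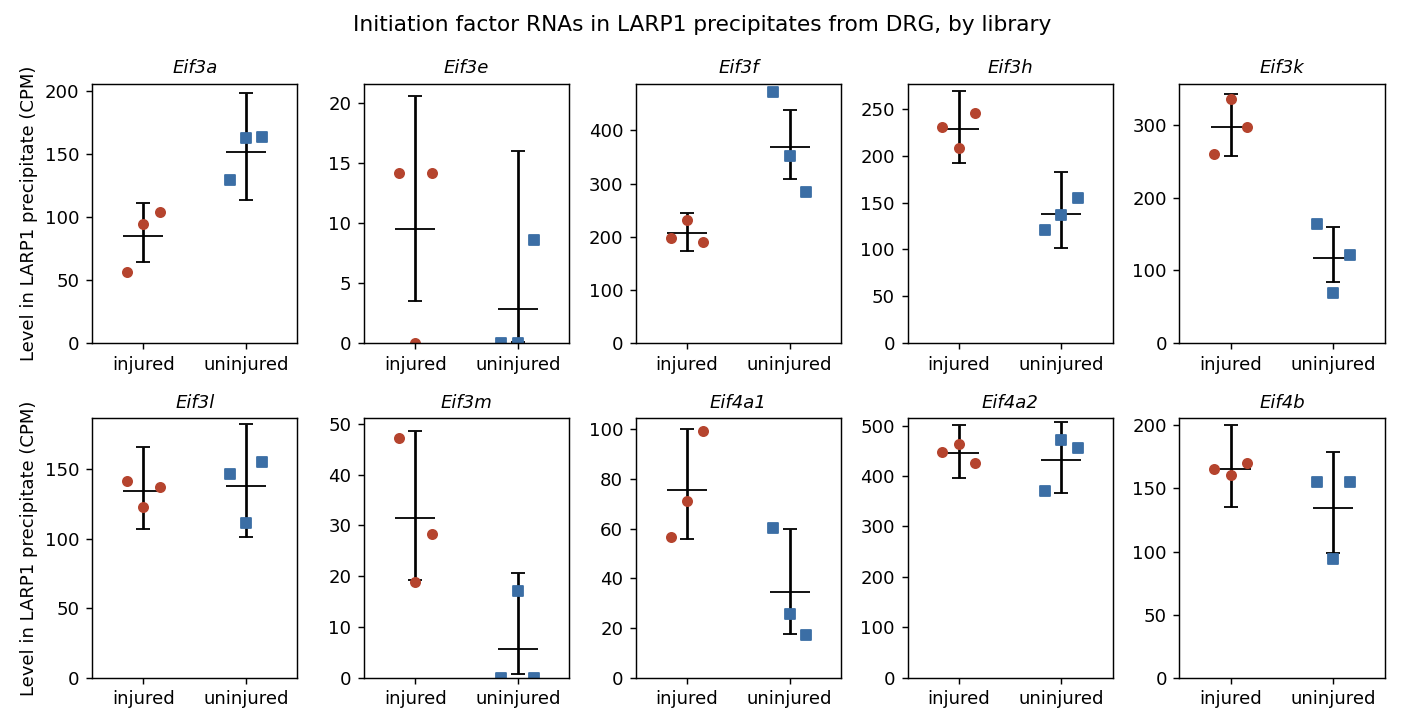
Level of each gene's RNA in the LARP1 precipitate, in CPM on axes that start at 0, with 1 panel per gene. Points are libraries, the wide line is the summed group and the bar its exact 95% Poisson interval. The injured points of Eif3h, Eif3k, Eif3m and Eif4b all lie above the uninjured ones, and those of Eif3a and Eif3f all lie below. Among all 3158 genes tested, 32.4% lay above and 23.1% below in this way.

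Among the scaffold subunits, Eif3a (ENSMUSG00000024991) encodes the largest subunit of the complex, around which the core assembles. The injured libraries held 12, 20 and 22 counts of it, or 56.6, 94.6 and 104 CPM, against 15, 19 and 19 counts in the uninjured libraries, or 129, 163 and 164 CPM. Every injured library lay below every uninjured one. The summed level was 85.1 CPM (63.9 to 111) in the injured group and 152 CPM (114 to 199) in the uninjured group, a ratio of 0.560 (0.376 to 0.835). Eif3a was called lower, but was no longer called without the first injured library (fitted log2 change -0.62, against -0.90 with all libraries) or without the second uninjured library (-0.86).

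Eif3f (ENSMUSG00000031029) and Eif3h (ENSMUSG00000022312) encode the pair of eIF3 subunits that carry an MPN domain, a fold shared with subunits of the proteasome lid. Their RNAs differed in opposite directions. For Eif3f, the injured libraries held 42, 49 and 40 counts, or 198, 232 and 189 CPM, against 55, 41 and 33 counts in the uninjured libraries, or 473, 352 and 284 CPM. The uninjured libraries spread widely, with a variance 2.89 times counting noise, yet none reached down to an injured one. The summed level was 206 CPM (173 to 245) in the injured and 369.6 CPM (309 to 439) in the uninjured group, a ratio of 0.559 (0.435 to 0.718), and the gene was called lower.

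For Eif3h, the injured libraries held 49, 44 and 52 counts, or 231, 208 and 246 CPM, against 14, 16 and 18 counts in the uninjured libraries, or 120.4, 137 and 155 CPM. All injured libraries lay above all uninjured ones. The summed level was 228 CPM (193 to 269) in the injured and 138 CPM (101 to 182) in the uninjured group, a ratio of 1.66 (1.19 to 2.35). Eif3h was called higher, and the call was lost without the first or without the second uninjured library (fitted log2 change 0.56 and 0.65, against 0.66).

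Counts of Eif3h per count of Eif3f do not depend on library totals. This ratio was 1.17, 0.898 and 1.30 in the injured libraries and 0.255, 0.390 and 0.545 in the uninjured libraries. The odds ratio of injured over uninjured was 2.97 (exact conditional 95% interval 1.94 to 4.57). The pairs of subunits set against each other in this way were picked with their values known. Their odds ratios therefore restate the ratios of the single genes and add no separate support.

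Eif3k (ENSMUSG00000053565) and Eif3l (ENSMUSG00000033047) encode subunits that lie next to each other at the edge of the core and are dispensable for viability in the worm Caenorhabditis elegans. Eif3k had the highest ratio among the 7 tested genes. The injured libraries held 55, 71 and 63 counts of Eif3k, or 259.6, 336 and 298 CPM, against 19, 8 and 14 counts in the uninjured libraries, or 163, 68.6 and 120.5 CPM. The groups did not overlap. The summed level was 298 CPM (257 to 343) in the injured and 117 CPM (84.3 to 159) in the uninjured group, a ratio of 2.54 (1.80 to 3.65). Its uninjured libraries varied 2.24 times as much as counting noise, and without 1 library at a time the ratio was between 2.10 and 3.15.

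Eif3l had nearly the same level in both groups. Counts of Eif3l in the injured libraries were 30, 26 and 29, or 142, 123 and 137 CPM, against 17, 13 and 18 counts in the uninjured libraries, or 146, 111 and 155 CPM. The injured values lay within the range of the uninjured ones. The ratio was 0.974 (0.676 to 1.42), so ratios within that interval are compatible with these reads as far as counting error goes. Counts of Eif3k per count of Eif3l were 1.83, 2.73 and 2.17 in the injured libraries and 1.12, 0.615 and 0.778 in the uninjured libraries, an odds ratio of 2.60 (1.55 to 4.37).

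Eif3e (ENSMUSG00000022336) and Eif3m (ENSMUSG00000027170), both of which encode subunits with a PCI domain like that of Eif3a, had too few counts for the test. Eif3m had 10, 4 and 6 counts in the injured libraries, against 0, 2 and 0 in the uninjured libraries. Its level was 31.5 CPM (19.3 to 48.7) in the injured and 5.73 CPM (0.694 to 20.7) in the uninjured group, a ratio of 5.50 with an interval of 1.34 to 48.5. The interval included 1 without the first injured, the first uninjured or the third uninjured library, with ratios of 4.13, 3.67 and 3.67. Eif3m was tested by DESeq2 and without a filter (fitted log2 change 2.46 and 2.35), and neither called it. Eif3e, known also as Int6, had 3, 0 and 3 counts in the injured libraries and 0, 0 and 1 in the uninjured libraries, and its ratio of 3.30 had an interval of 0.4004 to 152. These counts set no direction for Eif3e.

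**Figure D2:**
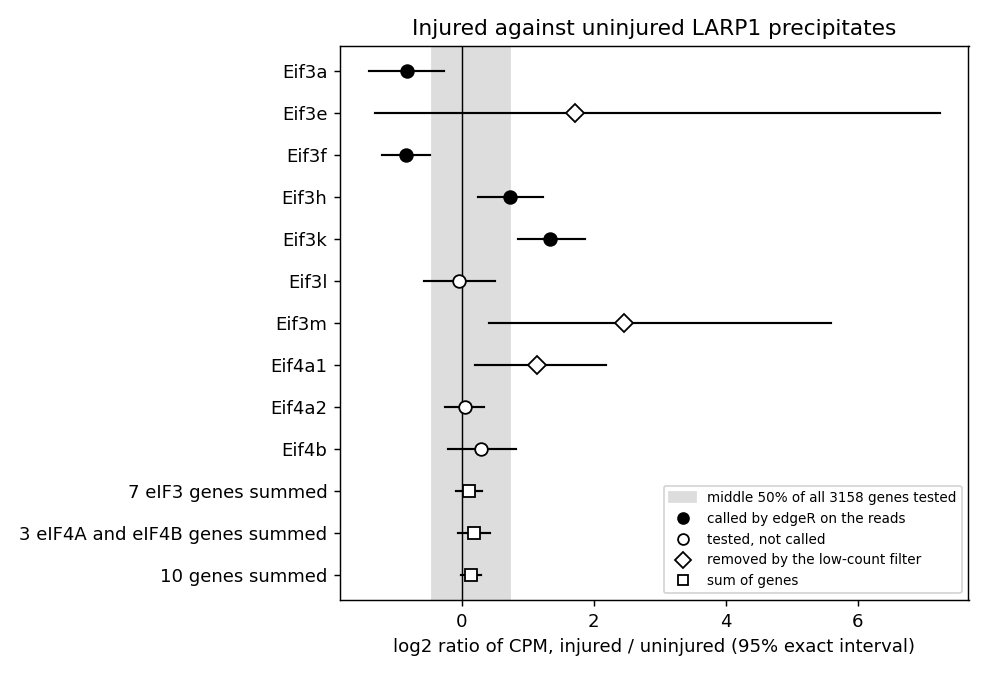
The log2 ratio of CPM, injured over uninjured, for each gene and for 3 sums of genes, with exact 95% intervals; filled points were called by edgeR on the reads, and diamonds are genes that the filter on low counts removed. The grey band spans the quartiles of all 3158 genes tested (-0.46 to 0.74); Eif3k and the diamonds (Eif3e, Eif3m and Eif4a1) lie to its right, Eif3a and Eif3f lie to its left, and Eif3h, though called higher, lies inside it at 0.73, as do Eif3l, Eif4a2, Eif4b and the 3 sums.

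The make-up of the eIF3 counts differed between the groups, by intervals that cover counting error only. Such shares were not computed for other sets of genes, and 47.0% of all 3158 genes tested were called in either direction. With an assumed coefficient of variation of 0.2, 0 of the 7 tested initiation factor genes were called. Shares of the counts of the 7 eIF3 genes were not divided by transcript length, so they compare groups and not genes. Eif3f held 20.8% (17.7% to 24.2%) of these counts in the injured group, against 40.1% (34.7% to 45.6%) in the uninjured group. Eif3a held 8.57% (6.50% to 11.04%) in the injured and 16.5% (12.6% to 21.0%) in the uninjured group. In the other direction, Eif3k held 30.0% (26.4% to 33.7%) in the injured and 12.7% (9.29% to 16.9%) in the uninjured group. Eif3h held 23.0% (19.8% to 26.5%) in the injured and 14.9% (11.2% to 19.3%) in the uninjured group. The share of Eif3l was 13.5% (10.9% to 16.4%) in the injured and 14.9% (11.2% to 19.3%) in the uninjured group. Counts of Eif3k per count of Eif3a, a pair called in opposite directions, were 3.50 in the injured and 0.774 in the uninjured group, an odds ratio of 4.50 (2.64 to 7.76). Because the pair was picked by its calls on the same counts, an odds ratio above 1 was set in advance. The shares and this odds ratio restate the ratios of the single genes and add no separate support.

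**Figure D3:**
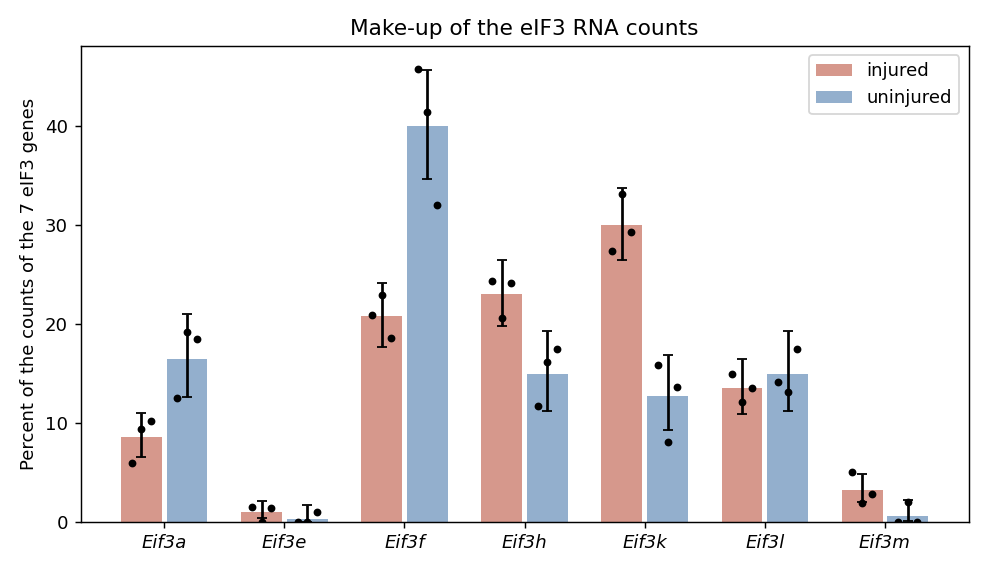
Share of the summed counts of the 7 eIF3 genes held by each gene, in percent, for injured and uninjured precipitates. Bars are summed groups with exact 95% Clopper-Pearson intervals and dots are libraries; Eif3f falls to 20.8% in the injured group against 40.1% in the uninjured group, and Eif3k reaches 30.0% against 12.7%.

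Eif4a1 (ENSMUSG00000059796) and Eif4a2 (ENSMUSG00000022884) encode closely related forms of the helicase eIF4A, of which Eif4a2 is known as the form prominent in brain and muscle. Because the paralogs are similar in sequence, the division of their reads by estimation is uncertain. Counts of Eif4a2 in the injured libraries were 95, 98 and 90, or 448, 464 and 426 CPM, against 43, 55 and 53 counts in the uninjured libraries, or 369.9, 472 and 456 CPM. The injured values lay within the uninjured range, and the ratio was 1.03 (0.843 to 1.26). Eif4a2 was not called.

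Counts of Eif4a1 in the injured libraries were 12, 15 and 21, or 56.6, 71.0 and 99.3 CPM, against 7, 3 and 2 counts in the uninjured libraries, or 60.2, 25.7 and 17.2 CPM. The groups overlapped, since the first uninjured library was above the first injured one. The summed level was 75.6 CPM (55.8 to 100.3) in the injured and 34.4 CPM (17.8 to 60.1) in the uninjured group, a ratio of 2.20 (1.15 to 4.55). The gene was not tested because the filter removed it. It was tested under 5 alternatives and called in 1 of them, as higher without the first uninjured library (fitted log2 change 1.70). It was not called without the second or the third uninjured library (0.88 and 0.72), by DESeq2 (1.14) or without a filter (1.16). The interval of the ratio included 1 without the third injured, the second uninjured or the third uninjured library (ratios of 1.86, 1.95 and 1.76).

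Eif4a2 held most of the eIF4A counts in both groups. Its share of the counts of Eif4a1 and Eif4a2 was 88.8%, 86.7% and 81.1% in the injured libraries and 86.0%, 94.8% and 96.4% in the uninjured libraries. For the summed groups it was 85.5% (81.2% to 89.1%) with injury and 92.6% (87.5% to 96.1%) without. The odds ratio of Eif4a2 over Eif4a1 was 0.469 (0.220 to 0.931), injured over uninjured. The interval included 1 without the third injured, the second uninjured or the third uninjured library, with odds ratios of 0.569, 0.553 and 0.602.

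Eif4b (ENSMUSG00000058655) encodes the cofactor of eIF4A, itself known as the product of a TOP mRNA. Its counts in the injured libraries were 35, 34 and 36, or 165, 161 and 170.3 CPM, against 18, 11 and 18 counts in the uninjured libraries, or 155, 94.3 and 155 CPM. All injured libraries were slightly above all uninjured ones, as was so for 3 of the 7 tested genes and for 32.4% of all genes tested; every injured library lay below for 2 of the 7 and for 23.1% of all. The summed level was 165 CPM (135 to 200.3) in the injured and 135 CPM (98.9 to 179) in the uninjured group. The ratio of 1.23 (0.863 to 1.77) was not called.

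Ratios of the genes with and without a pyrimidine run near the annotated start are given side by side, since 2 genes with a run allow no comparison of the kinds. Eif3f, with the 15-base run printed above, had a ratio of 0.559, and Eif3l had a ratio of 0.974. The 6 genes whose window held no such run had ratios of 0.560 for Eif3a, 1.03 for Eif4a2, 1.23 for Eif4b, 2.20 for Eif4a1, 2.54 for Eif3k and 5.50 for Eif3m. Eif3h (ratio of 1.66) and Eif3e (3.30) had no start to look at and belong to neither kind here.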

How the data were processed

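The 6 libraries of LARP1 precipitates from wild-type mouse DRG were analysed, with groups and replicate numbers taken from the titles. The authors deposited estimated counts per Ensembl identifier, not normalized; the tools named in the submitters' processing notes are minimap2 and Salmon, with the build GRCm39 (mm39). Per the labels' protocols, RNA from the anti-LARP1 precipitate was made into nanopore cDNA-PCR libraries. Their versions and the annotation are not stated there. All values were whole numbers, 0 further columns were left unused and 0 rows named no gene.

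The members and lists were chosen with earlier results of these data known, and symbols came with the chosen identifiers. All 10 members are named. Other initiation factors, cell type markers, and thus the check of the labelled tissue, were not analysed here, because the gene table used pairs 0 identifiers with symbols. No gene was picked by likeness of pattern.

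Counts were tested with edgeR 4.0.16 (R 4.3.3, TMM, filterByExpr with a minimum count of 10), after a check on simulated data. The simulated spread was close to that between libraries of a group, and changes were placed only in genes with more counts. The check therefore does not cover spread between animals or genes with few counts. Single genes get no p-value, since each group was treated as 1 sample. Alternatives were no filter, other size factors, limma-voom (limma 3.58.1), DESeq2 1.42.0, a replicate block, leaving out each library and, added after the data were seen, assumed coefficients of variation of 0.2 and 0.4. Ratios and intervals used scipy 1.17.1. A floor of 3 counts corresponds to 4.73 CPM in the injured and 8.60 CPM in the uninjured group.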

Additional observations from a re-analysis of the deposited data

How the results depend on the processing

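Of 316 values recomputed under alternatives, 284 were labelled the same and 32 weaker, and none changed sign in a called gene. Same meant a ratio of CPM or share inside its main interval, or an unchanged call or side of 1. For counts of genes it meant within 1.5-fold of the main count. A ratio from most of the same counts falls inside its main interval almost by construction, so the tally is no independent check. With 1 library left out, the interval kept its side of 1 in 3 of 6 cases for Eif3m and for Eif4a1. For the 10 genes summed it did so in 4 of 6. Of the 2 genes called higher and 2 called lower, DESeq2 called 1 and 1 (Eif3k and Eif3f), beside 774 higher and 584 lower of 9191 genes in the whole table, and without a filter on low counts 2 and 1 were called (Eif3a was lost). Leaving out 1 library gave 1 to 2 higher and 1 to 2 lower, beside 638 to 836 and 582 to 756 in the whole table; without the first uninjured library the 2 higher were Eif3k and Eif4a1, and Eif3h was lost. With summed groups and the coefficient of variation set to 0.2, 0 and 0 were called, beside 305 higher and 176 lower in the whole table; with 0.4 it was 0 and 0, beside 42 and 5. The assumed spread exceeds that between libraries. The replicate block called 2 and 2, with 750 higher and 677 lower in the whole table against 786 and 699. The replicate numbers were not taken to pair libraries. Libraries of the same number deviated from their group means with correlations of 0.04, -0.01 and -0.05. Because the spread within groups was close to counting noise, these correlations cannot tell whether libraries are paired. Of all calls, 927 were higher and 610 lower without TMM factors, a larger share higher than in the main test, 948 and 582 without a filter. The summed ratio of the 10 genes was 0.14 in log2 in the main setting and 0.10 to 0.18 with 1 library left out. It was smaller with other totals: 0.09 with TMM library sizes, 0.07 with DESeq2 size factors and 0.05 with the 10 most abundant genes left out of the totals. Depth limits Eif3e, Eif3m and Eif4a1, with 7, 22 and 60 counts in all libraries.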
